A study of Mus musculus with 12 samples.

Results

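Hyaluronan synthases, hyaluronan-degrading and hyaluronan-binding proteins, the proteoglycan versican and the lubricant proteoglycan 4 were followed through the first 3 d of wound repair in dermal fibroblasts. The set was defined by gene name, with earlier results of these data known. It held 9 of the 25239 genes in the count table: Has1, Has2, Hyal1, Hyal2, Cemip, Cd44, Tnfaip6, Vcan and Prg4. All 9 passed the filter on low counts that left 14901 genes for testing, Cemip through its wound libraries. RNA was sequenced from SCA1+ fibroblasts of wild type, male C57BL/6 mice of 8 weeks, either without a wound (NW) or at 16 h, 1.5 d or 3 d after full-thickness back skin wounds made by a 4 mm punch. Each of the 4 groups had 3 libraries, from 3 mice per group, so that the spread between libraries includes that between animals. The cells had been sorted from liberase-digested skin as viable, CD45-, CD31- and SCA1+, and SCA1- fibroblasts were not analysed here.

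Hyaluronan is a long, unsulfated glycosaminoglycan that is extruded from the cell by synthases in the plasma membrane, which join glucuronic acid and N-acetylglucosamine from their UDP-sugar precursors. In the matrix it binds water, is taken apart by hyaluronidases and by CEMIP, and signals through receptors such as CD44. In inflamed and injured tissue it can be crosslinked by heavy chains that TSG-6, the product of Tnfaip6, transfers onto it, and it carries versican, a large chondroitin sulfate proteoglycan of provisional matrix. PRG4, also called lubricin, is a mucin-like protein best known from the surface of cartilage and from synovial lining fibroblasts, and it binds CD44 as well.

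The 3 promoters below belong to a synthase (Has1), the crosslinker (Tnfaip6) and the one member without counts in NW fibroblasts (Cemip), and are shown because motifs searched for were found in them. They are RefSeq sequences on GRCm38.p6, from 250 bases before to 50 bases after the gene start, 5′ to 3′ on the strand of the gene. Capitals mark a CRE (TGACGTCA) and a C/EBP match (TTGCNNAA) in Has1, a STAT (TTCNNNGAA) and an AP-1 match (TGANTCA) in Tnfaip6, and a TATA box (TATAAA) in Cemip.
Has1, chr17:17855139-17855438, minus strand: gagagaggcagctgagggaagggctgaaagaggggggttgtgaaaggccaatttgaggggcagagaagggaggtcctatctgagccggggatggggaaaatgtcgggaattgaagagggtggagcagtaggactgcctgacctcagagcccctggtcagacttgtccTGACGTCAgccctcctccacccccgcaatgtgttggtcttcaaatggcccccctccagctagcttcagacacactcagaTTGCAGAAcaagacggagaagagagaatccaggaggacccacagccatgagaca
Tnfaip6, chr2:52037863-52038162, plus strand: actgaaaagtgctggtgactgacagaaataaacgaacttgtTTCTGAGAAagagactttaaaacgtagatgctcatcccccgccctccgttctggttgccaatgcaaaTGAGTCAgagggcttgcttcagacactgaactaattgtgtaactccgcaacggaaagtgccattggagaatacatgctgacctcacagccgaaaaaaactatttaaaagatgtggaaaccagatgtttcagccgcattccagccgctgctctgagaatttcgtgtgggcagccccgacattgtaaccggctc
Cemip, chr7:84086456-84086755, minus strand: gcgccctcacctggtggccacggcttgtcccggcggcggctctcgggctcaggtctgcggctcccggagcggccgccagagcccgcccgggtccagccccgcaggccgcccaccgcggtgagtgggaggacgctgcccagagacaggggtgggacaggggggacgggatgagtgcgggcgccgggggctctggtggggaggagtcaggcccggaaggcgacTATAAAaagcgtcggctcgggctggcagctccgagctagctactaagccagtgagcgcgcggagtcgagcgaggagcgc
The CRE of Has1 began 83 bases before the start and the C/EBP match 4 bases before it. In Tnfaip6 the STAT match began 209 and the AP-1 match 142 bases before the start, and the TATA box of Cemip began 29 bases before its start. Both strands were searched, and of 32851 promoters of this length 1.79% held the CRE, 10.8% the C/EBP motif, 8.3% the STAT motif, 7.81% the AP-1 motif and 13.6% the TATA box. A promoter was matched for 7 of the 9 members. Hyal2 held an NF-kB match 238 bases before its start, a motif found in 8.46% of all promoters, and the GC box (GGGCGG), not capitalised above, occurred in Hyal1, Hyal2, Cemip, Cd44, Tnfaip6 and Vcan against 35.7% of all promoters. These are matches of letters, and no binding was measured.

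Library totals lay between 26389453 and 43493475 counts, at which 3 counts correspond to 0.069 to 0.114 CPM. Levels below are CPM (counts scaled to library size) after TMM scaling, or TPM (also scaled to exon length) where genes are compared with each other. Ly6a, which encodes SCA1, had a mean of 1053 ± 158 CPM in NW and 1514 ± 382, 2020 ± 781 and 1091 ± 125 CPM at 16 h, 1.5 d and 3 d (SD, n = 3). Ptprc (CD45) reached 8.71 CPM at most and Pecam1 (CD31) 3.98 CPM, and 8 fibroblast markers made up 4.25% to 20.3% of counts. The 12 keratinocyte markers took 1.89% to 3.84% of counts in NW, 0.83% to 1.32% at 16 h, 0.40% to 0.713% at 1.5 d and 0.0794% to 1.28% at 3 d. Every wound library was therefore below every NW library, so that wounding and keratinocyte share cannot be told apart where they move together. The 8 leukocyte markers summed to 6.94e-06% to 0.000836% of counts in NW, 0.00261% to 0.00373% at 16 h, 0.000874% to 0.00154% at 1.5 d and 0.00106% to 0.00128% at 3 d, so that every wound library was above every NW library, and 3 of the 8 (Cxcr2, Csf3r and Retnlg) were at 0 in NW. The 8 endothelial markers summed to 0.00701% to 0.0112% in NW and 0.000953% to 0.00512% in the wound libraries, again without overlap. Tek carried that sum, with a mean of 79.3 CPM in NW and 9.2, 28 and 26.2 CPM at 16 h, 1.5 d and 3 d. Of the 8 endothelial markers, 2 had a higher mean than in NW and 6 a lower one at 16 h and 1.5 d. At 3 d these numbers were 4 and 4. The 8 macrophage markers reached at most 0.00992% (NW), a sum carried by Csf1r. The 8 pericyte and smooth muscle markers summed to 0.00606% to 0.0101% in NW and 0.0246% to 0.0424% at 3 d. Acta2 carried the sum at 3 d, with a mean of 265 ± 85.6 CPM against 8.53 ± 2.88 CPM in NW. At 3 d, 4 of the 8 pericyte and smooth muscle markers had a higher mean than in NW, Acta2 included, and 4 a lower one. The part of these cell types in the results was not tested.

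Most of the 9 genes had more transcript in wound fibroblasts than in unwounded ones. At 16 h, 5 rose and none fell (Cemip, Cd44, Tnfaip6, Vcan and Prg4), at 1.5 d Has1 and Has2 joined them for 7 that rose with 1 that fell (Hyal1), and at 3 d 5 rose and 1 fell, Has1 and Tnfaip6 no longer passing the test (edgeR's quasi-likelihood test, Benjamini-Hochberg adjusted p under 0.05 over 14901 genes). Of all genes tested, 13.5% rose and 11.2% fell at 16 h, 13.7% rose and 10.8% fell at 1.5 d, and 12% rose and 9.15% fell at 3 d. These shares are also the ones to set beside the counts of each pathway list below. Members and lists were chosen with earlier results of these data known. Their counts and medians beside those of all genes therefore cannot show that they respond more than other genes. The members' median log2 change was 1.07, 1.04 and 0.80 at the 3 times, against -0.04, 0.01 and 0.00 over all genes. Levels without overlap between the 3 wound and 3 NW libraries were found for 6 members higher and 1 lower at 16 h, 7 and 1 at 1.5 d, and 5 and 1 at 3 d, where 20.4%, 20.5% and 20.9% of all genes were higher and 20.9%, 20.2% and 19.4% lower without overlap. An F test among the 4 groups called 8 of the 9, all but Hyal2, and 29.7% of all genes. Its call of Has1 (adjusted p = 0.0357) was lost without NW replicate 2 or 3, any 1 of the 16 h libraries, or 1.5 d replicate 1 or 3 (up to 0.111). A block for replicate number also lost it (0.0556). The F test call of Has2 was lost without NW replicate 2 or 3 (up to 0.0863). With the keratinocyte share as a covariate the F test called 4 of the 9. Cemip is in each of the counts of members from the main fit. It passed the filter through its wound libraries alone, so that its calls against NW add no support. The 3 comparisons with NW share the same NW libraries, and in whole-population RNA a change in the fraction of cells that express a gene cannot be told apart from a change in RNA per cell.

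**Figure D1:**
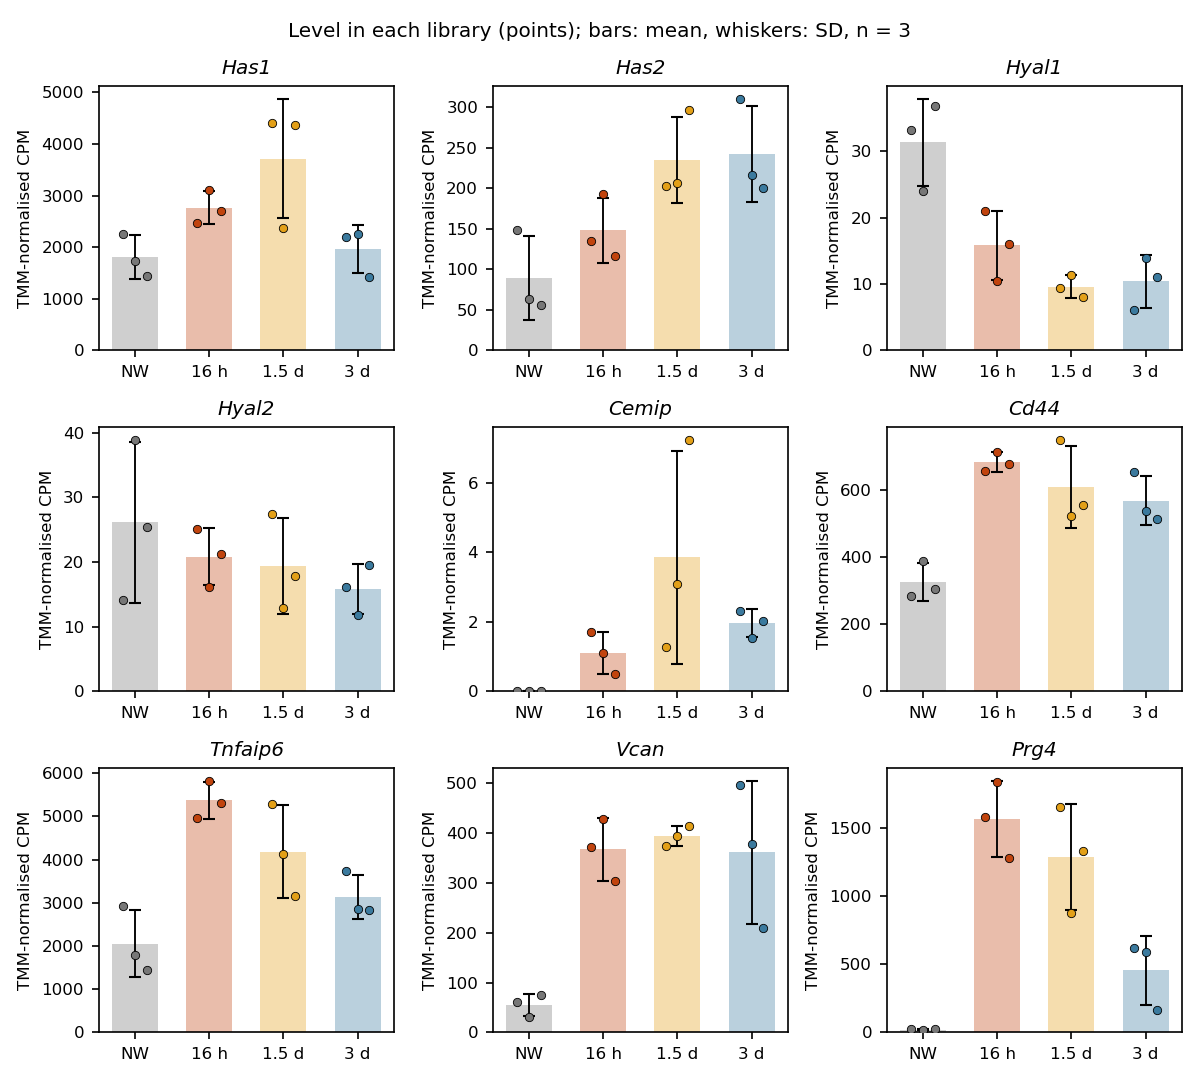
Level of each of the 9 genes (TMM-normalised CPM, linear axes) in NW fibroblasts and at 16 h, 1.5 d and 3 d after wounding; points are libraries, bars are means and whiskers SD (n = 3). Vcan, Cd44, Cemip and Prg4 lay above all NW libraries at every wound time, and Hyal1 lay below them.

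**Figure D2:**
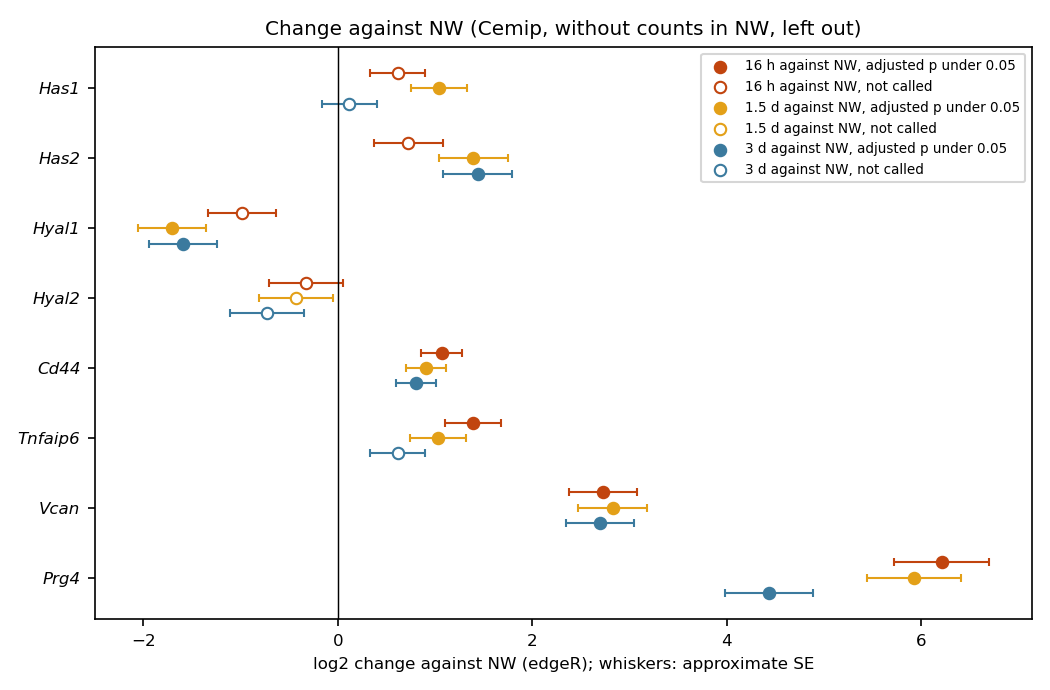
Fitted log2 change against NW on the x axis for 8 of the 9 genes at each wound time, with approximate SE as whiskers; filled points had an adjusted p under 0.05 and open points did not. Cemip is left out because NW had no counts. Prg4 moved furthest, with 6.21, 5.92 and 4.43, and Hyal1 was the one gene called lower.

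Has1 was the dominant hyaluronan synthase transcript of these cells throughout. The gene lies at chr17:17843326-17855188 (mm10, minus strand) and stood at 2264, 1724 and 1437 CPM in NW, 2476, 3118 and 2707 CPM at 16 h, 4417, 2378 and 4362 CPM at 1.5 d, and 2203, 2252 and 1430.3 CPM at 3 d. All libraries of 16 h and 1.5 d were above all of NW, whereas those of 3 d overlapped NW and lay below those of both earlier wound times. The means were 1808 ± 420.2, 2767 ± 325, 3719 ± 1162 and 1962 ± 461 CPM. Has1 rose at 1.5 d by 1.04 on the log2 scale, or 2.06-fold (SE 0.287, adjusted p = 0.0185), and did not pass the test at 16 h (0.61, adjusted p = 0.134) or 3 d (0.12, adjusted p = 0.814). The differences of 3 d from 1.5 d (-0.92, adjusted p = 0.341) and from 16 h (-0.50, adjusted p = 0.314) were not called either. The call at 1.5 d was lost without NW replicate 2 (adjusted p = 0.0548) or 3 (0.0723) and without 1.5 d replicate 1 (0.0558) or 3 (0.0707), and with the keratinocyte share as a covariate (0.401).

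Has2 encodes the synthase that is needed for development and is a common target of growth factors in fibroblasts. Its gene (chr15:56665627-56694546, mm10, minus strand) shares 4.29% of its exon bases with the antisense gene Has2os. The library protocol gives no strand to separate them, and fragments on those bases were not counted for either gene. Has2 stood at 149, 63.2 and 56.1 CPM in NW, 135, 192 and 117 CPM at 16 h, 202, 207 and 296 CPM at 1.5 d, and 310.3, 216 and 200.2 CPM at 3 d. All libraries of 1.5 d and 3 d exceeded all of NW and 16 h, while 16 h overlapped NW because NW replicate 1 was high. The rise was 2.63-fold at 1.5 d (log2 1.39, SE 0.356) and 2.71-fold at 3 d (log2 1.44, SE 0.357), each with an adjusted p of 0.0126, and at 16 h the change was 0.73 (adjusted p = 0.15). Without NW replicate 1 the log2 changes were 1.36, 2.01 and 2.05, and 16 h was then called too (adjusted p = 0.00983). The call at 1.5 d was lost without NW replicate 2 (adjusted p = 0.0517) or 3 (0.0589) or 1.5 d replicate 3 (0.0539), and that at 3 d without NW replicate 2 (0.0541) or 3 (0.0567) or 3 d replicate 1 (0.0603). With the keratinocyte share as a covariate neither passed (adjusted p = 0.327 and 0.431).

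Per exon length, Has1 exceeded Has2 by 14.4 to 55.4 times in the 12 libraries. Has1 had a mean of 2146 ± 489 TPM in NW and 4365 ± 1359 TPM at 1.5 d, ranks 57 and 21 of 25239 genes, and Has2 had 52.5 ± 30.7 and 139.7 ± 48 TPM, ranks 2884 and 1310. Has3, the remaining synthase gene, had 3.12 ± 1.38, 14 ± 6.87, 6.62 ± 1.86 and 2.48 ± 2.16 CPM in NW and at 16 h, 1.5 d and 3 d, and was not called in the F test (adjusted p = 0.0811).

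The make-up of the synthase pool differed at 3 d. Has2 and Has3 together gave 3.20%, 1.85% and 1.92% of synthase TPM in the NW libraries, 2.90%, 3.05% and 2.22% at 16 h, 2.27%, 4.20% and 3.27% at 1.5 d, and 6.49%, 4.57% and 6.52% at 3 d. Each library of 3 d was above each of the other 9. The Has1 share was thus 97.7% ± 0.757 in NW and 94.1% ± 1.12 at 3 d (SD, n = 3), and the 4 groups differed in an exact permutation test over 369600 assignments (p = 0.00669, where 6.49e-05 is the smallest possible).

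**Figure D3:**
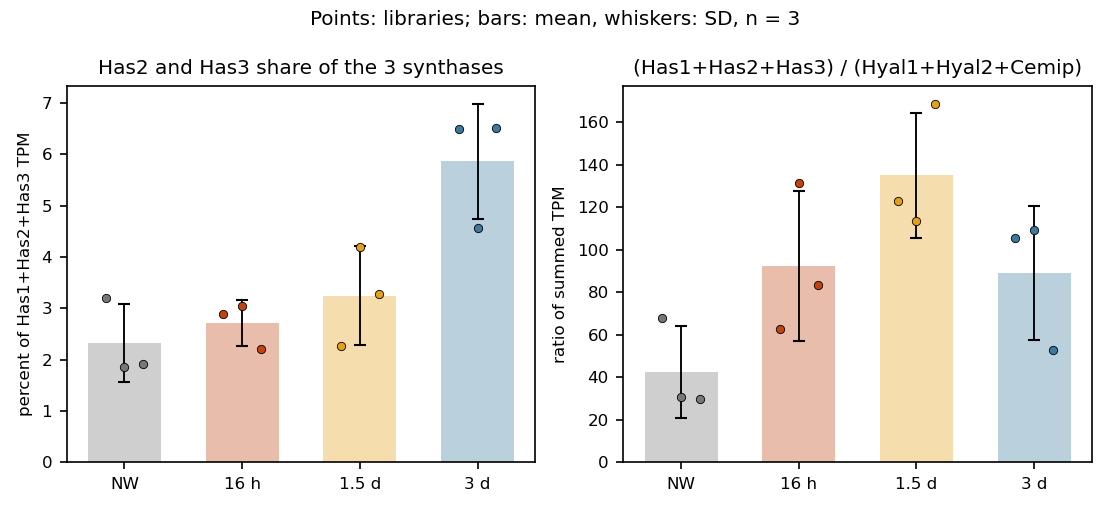
Left, the share of Has2 and Has3 in the summed TPM of Has1, Has2 and Has3 (percent); right, the summed TPM of the 3 synthases over that of Hyal1, Hyal2 and Cemip (ratio). Points are libraries, bars means and whiskers SD (n = 3); the 3 libraries of 3 d, at 4.57% to 6.52%, lie above the other 9 on the left.

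Among the genes for enzymes that supply the synthases, Gfpt2, Ugdh and Uap1 were also abundant. Of 7 genes for UDP-sugar precursors, 5 rose at 16 h, 6 at 1.5 d and 2 at 3 d, and none fell, with median log2 changes of 0.86, 0.97 and 0.57. Gfpt2, an isoform of the enzyme that commits glucose to the hexosamine pathway, stood at 1929 ± 829.9 CPM in NW and 4451 ± 879, 4130.2 ± 709 and 3035 ± 578 CPM at 16 h, 1.5 d and 3 d. It rose 2.31-fold at 16 h (adjusted p = 0.0115) and 2.14-fold at 1.5 d (adjusted p = 0.0179). Ugdh, which makes UDP-glucuronic acid, had 1171 ± 415 CPM in NW and 2494 ± 202 CPM at 16 h, a rise of 2.13-fold (adjusted p = 0.0146), and was 1.89-fold above NW at 1.5 d (adjusted p = 0.0322). Uap1, which completes UDP-N-acetylglucosamine, rose 1.80-fold at 16 h and 1.77-fold at 1.5 d (adjusted p = 0.0198 and 0.0233) and was at 1118 ± 138 CPM at 3 d against 1134 ± 248 CPM in NW. Gnpnat1 rose at 1.5 d alone among the 3 comparisons with NW (2.43-fold, adjusted p = 0.00674). Pgm3, which acts between Gnpnat1 and Uap1 in the pathway, rose at all 3 times, by 0.86, 1.53 and 1.50 on the log2 scale (adjusted p = 0.00728, 0.00026 and 0.000288). At 16 h the mean TPM of Gfpt2, Has1, Ugdh and Uap1 ranked 24, 27, 35 and 56 among all genes. That of Ugp2, Gnpnat1, Pgm3 and Gfpt1 ranked 1411, 3030, 4100 and 4881. The calls of Ugdh and Uap1 lay close to the threshold. Ugdh lost its call at 16 h without NW replicate 2 or 3 or 16 h replicate 2 (adjusted p up to 0.0555) and at 1.5 d without NW replicate 2 or 3 or 1.5 d replicate 1 or 3 (up to 0.126). Uap1 lost its call at 16 h without NW replicate 3 or 16 h replicate 2 (up to 0.0705) and at 1.5 d without NW replicate 2 or 3 or 1.5 d replicate 1 or 3 (up to 0.0893). Gfpt2 lost its call at 16 h without 16 h replicate 2 (adjusted p = 0.0549) and at 1.5 d without NW replicate 2 or 3 or 1.5 d replicate 3 (up to 0.0774). With only the 2 groups in the fit, Ugdh (adjusted p = 0.0827) and Uap1 (0.0729) lost their calls at 1.5 d. With the keratinocyte share as a covariate the calls of Gfpt2, Ugdh and Uap1 were lost at 16 h (adjusted p = 0.064, 0.0756 and 0.104) and at 1.5 d (0.373, 0.428 and 0.38), as were those of Pgm3 at 16 h (0.0554) and Gnpnat1 at 1.5 d (0.155).

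NW replicate 1 had the highest level of Has1, Has2, Tnfaip6, Gfpt2, Ugdh and Uap1 in its group, and it had the lowest keratinocyte share of the 3 NW libraries (1.89%, against 3.84% and 3.16%). The same library had the lowest Cd44 (285 CPM, against 390.1 and 306) and Hyal2 (14.1 CPM, against 38.9 and 25.4) and was not the highest for Vcan or Hyal1.

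Among the 3 members that degrade hyaluronan, Hyal1 fell, Cemip rose and Hyal2 did not pass the test. Hyal1 (chr9:107576950-107581699, mm10, plus strand) encodes an acid hyaluronidase of lysosomes. It stood at 33.3, 24 and 36.8 CPM in NW, 20.9, 10.5 and 16.1 CPM at 16 h, 9.43, 11.4 and 7.99 CPM at 1.5 d, and 6.15, 14 and 11.1 CPM at 3 d. Every wound library was below every NW library. Hyal1 fell 3.26-fold at 1.5 d (log2 -1.71, SE 0.353, adjusted p = 0.00405) and 3.01-fold at 3 d (-1.59, SE 0.352, adjusted p = 0.00675). At 16 h the change was -0.98 with an adjusted p of 0.0534, which DESeq2 (0.0197) and limma-voom (0.026) called, as did the fits without 16 h replicate 1 (0.0453) or 3 d replicate 1 (0.0423). With the keratinocyte share as a covariate the calls at 1.5 d (adjusted p = 0.174) and 3 d (0.361) were lost. The gene shares 8.23% of its exon bases with Hyal3 and Naa80, and fragments on those bases were not counted for any of them.

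Hyal2, a cell-surface hyaluronidase anchored by a lipid, lies beside it at chr9:107569163-107572778 (mm10, plus strand). Hyal2 stood at 14.1, 38.9 and 25.4 CPM in NW and between 11.8 and 27.4 CPM in the 9 wound libraries, with overlap at every time. Its log2 changes were -0.33, -0.43 and -0.72 at 16 h, 1.5 d and 3 d (adjusted p = 0.569, 0.444 and 0.201).

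Cemip (chr7:83932857-84086505, mm10, minus strand), whose protein binds hyaluronan and brings about its depolymerisation, was not detected in the sorted NW fibroblasts. It had 0 counts in all 3 NW libraries, then 51, 37 and 15 counts at 16 h, 38, 125 and 327 at 1.5 d, and 57, 38 and 56 at 3 d. In CPM these were 1.7, 1.11 and 0.503 at 16 h, 1.27, 3.08 and 7.24 at 1.5 d, and 2.32, 1.54 and 2.02 at 3 d, so the transcript was present in all 9 wound libraries at a low level. Against a floor of 3 counts over the NW group, Cemip was at least 32-fold higher at 16 h, 122-fold at 1.5 d and 56.8-fold at 3 d. Leaving out 1 library changed these bounds to between 20.8 and 40.3 at 16 h, between 66.8 (without 1.5 d replicate 3) and 152 at 1.5 d, and between 36.9 and 62.6 at 3 d. Cemip passed the filter through its wound libraries alone, so that its tests against NW add no support. The mean of 1.44 ± 1.24 TPM at 1.5 d compares with 25.2 ± 6.03 TPM for Hyal2 and 6.38 ± 1.52 TPM for Hyal1.

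The wider list of 10 degradation genes moved in both directions. Hyal4, Hyal5 and Spam1 had no counts, and of the 7 tested genes 2 rose and 1 fell at 16 h, and 3 rose and 2 fell at both 1.5 d and 3 d. Cemip, whose tests against NW add no support, is among those that rose at each time. Cemip2, a cell-surface relative of Cemip, was at 63.1 ± 14.8 CPM in NW and 215 ± 71.6, 206 ± 13.4 and 181 ± 54.3 CPM after wounding, and rose 3.41-, 3.26- and 2.87-fold (adjusted p = 0.00116, 0.0015 and 0.0032). Gusb, beta-glucuronidase, rose 2.47-fold at 1.5 d and 2.84-fold at 3 d (adjusted p = 0.0018 and 0.000894). Hexa, which encodes a lysosomal glycosidase subunit, fell 4.17-fold at 16 h (adjusted p = 0.000352) and was still lower at 3 d (-0.88, adjusted p = 0.0396, a call lost without any 1 of NW replicates 1 and 2 and the 3 d libraries, at adjusted p up to 0.143). Gusb and Hexa also act on other glycans. With the keratinocyte share as a covariate the calls of Cemip2 were lost at 1.5 d (adjusted p = 0.068) and 3 d (0.188), that of Gusb at 1.5 d (0.0507) and that of Hexa at 3 d (0.421).

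The summed TPM of the 3 synthases over that of Hyal1, Hyal2 and Cemip was 67.8, 30.6 and 29.7 in NW, 62.8, 131 and 83.4 at 16 h, 123, 114 and 169 at 1.5 d, and 105, 109 and 52.9 at 3 d. All 1.5 d libraries were above all NW libraries, and the other wound times overlapped NW. The means were 42.7 ± 21.7, 92.5 ± 35.2, 135 ± 29.5 and 89.2 ± 31.5 (SD, n = 3; exact permutation test over the 4 groups, p = 0.0368). That difference depended on single libraries, since leaving out 1 gave p between 0.0173 and 0.0979, and 8 of the 12 omissions gave a p over 0.05 (NW replicates 2 and 3, 16 h replicate 3, all 3 of 1.5 d, and 3 d replicates 1 and 2). The ratio leaves out Cemip2, which had means of 23.8, 83.8, 76.1 and 68.2 TPM in NW and at 16 h, 1.5 d and 3 d. Hyal2, which it includes, had 34.7, 29.2, 25.2 and 21.5 TPM. The ratio therefore does not stand for all degrading enzymes, and one with Cemip2 was not tested.

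Cd44 encodes the principal hyaluronan receptor and lies at chr2:102811142-102901665 (mm10, minus strand). It stood at 285, 390.1 and 306 CPM in NW, 658, 715 and 680.1 CPM at 16 h, 752, 525 and 557 CPM at 1.5 d, and 655, 539 and 515 CPM at 3 d. Every wound library was above every NW library, and the 3 d libraries lay below those of 16 h without overlap. Cd44 rose 2.09-fold at 16 h (log2 1.07, SE 0.208, adjusted p = 0.0028), 1.87-fold at 1.5 d (0.90, SE 0.207, adjusted p = 0.00705) and 1.74-fold at 3 d (0.80, SE 0.207, adjusted p = 0.0151). The difference between 3 d and 16 h was -0.26 (adjusted p = 0.48). The call at 3 d was lost without 3 d replicate 1 (adjusted p = 0.065), and with the keratinocyte share as a covariate those at 1.5 d (0.178) and 3 d (0.358) were lost.

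Of 8 receptor genes tested, 3 rose and 1 fell at 16 h, 3 rose and 1 fell at 1.5 d, and 2 rose and 1 fell at 3 d. Layn, which encodes the membrane receptor layilin, rose 3.36-fold at 16 h and 2.71-fold at 1.5 d (adjusted p = 0.000629 and 0.00214). Layn was lower at 3 d than at 16 h (-1.07, adjusted p = 0.0227), a call lost without 16 h replicate 2 or 3 or any 1 of the 3 d libraries (up to 0.0815) and with the keratinocyte covariate (0.0596). Stab1, a scavenger receptor of macrophages and some endothelium, was low, at 2.93 ± 1.55 CPM in NW and 27 ± 4.88 CPM at 3 d, and rose at 16 h, 1.5 d and 3 d by 1.76, 2.77 and 3.20 on the log2 scale (adjusted p = 0.021, 0.00214 and 0.00118). Its call at 16 h was lost without NW replicate 1 or 2 or 16 h replicate 2 (up to 0.0894), with limma-voom (0.0668) and with the keratinocyte covariate (0.0563), and without 1.5 d replicate 3 its change at 1.5 d was 2.07. The macrophage markers took 0.00429% to 0.00992% of counts in NW and 0.00557% to 0.00821% at 3 d, where Csf1r (60.1 ± 29.4 CPM in NW and 48.8 ± 8.08 CPM at 3 d) carried the sum. The other 7 macrophage markers had a higher mean at 3 d than in NW, among them Lyz2 (3.33 and 12.6 CPM in NW and at 3 d), Adgre1 (0.0855 and 1.6), C1qb (0.493 and 2.88) and Mrc1 (0 and 1.22), and the part of such cells in the level of Stab1 was not tested. Tlr2, a pattern receptor reported to sense hyaluronan fragments, fell at all 3 times, from 54.9 ± 27.1 CPM to between 12.4 ± 3.29 and 15.9 ± 1.44 CPM (log2 -2.14, -1.79 and -1.85, adjusted p = 0.00101, 0.00281 and 0.00267), and with the keratinocyte covariate its calls at 1.5 d (0.0521) and 3 d (0.0865) were lost. Hmmr, a receptor whose transcript also follows cell division, differed only between 3 d and 16 h among the 6 pairwise comparisons (2.79, adjusted p = 0.0392), and that call was lost without any 1 of the 16 h or 3 d libraries or 1.5 d replicate 2 or 3 (up to 0.125), without a filter on low counts (0.0851) and with the covariate (0.0657).

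Tnfaip6 (chr2:52038113-52056681, mm10, plus strand) encodes TSG-6 and was, per exon length, the most abundant of the 9 genes in each group. It stood at 2922, 1789 and 1441 CPM in NW, 4963, 5828 and 5316 CPM at 16 h, 5283, 4118 and 3152 CPM at 1.5 d, and 3732, 2859 and 2830.2 CPM at 3 d. The libraries of 16 h and 1.5 d were above all of NW, and those of 3 d overlapped NW and lay below all of 16 h. The mean was 3180.3 ± 1206 TPM in NW and 8727 ± 948 TPM at 16 h, ranks 29 and 5 of all genes. Tnfaip6 rose 2.62-fold at 16 h (log2 1.39, SE 0.287, adjusted p = 0.00412) and 2.04-fold at 1.5 d (1.03, SE 0.285, adjusted p = 0.019), and at 3 d its change was 0.61 (adjusted p = 0.144). The difference of 3 d from 16 h was -0.77 (adjusted p = 0.107), and under total-count scaling it was called (-0.95, adjusted p = 0.0294). The call at 1.5 d was lost without NW replicate 2 (0.0653) or 3 (0.0778) or 1.5 d replicate 1 (0.0647), with only the 2 groups in the fit (0.0548) and with the keratinocyte covariate (0.311), and without NW replicate 1 the change at 3 d was called (0.99, adjusted p = 0.0244).

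The partners of TSG-6 were unevenly expressed. Of 13 crosslinking and link protein genes, 6 passed the filter, and 2 rose and 1 fell at both 16 h and 1.5 d, with none called at 3 d. Ptx3, a pentraxin that binds TSG-6 and hyaluronan-bound heavy chains, went from 850.4 ± 234 CPM in NW to 3124 ± 408 CPM at 16 h and 4149 ± 1650.5 CPM at 1.5 d, then 1203 ± 367 CPM at 3 d. It rose 3.67- and 4.88-fold (adjusted p = 0.0017 and 0.000602), and was lower at 3 d than at 16 h (-1.38, adjusted p = 0.0199), the last call being lost without 16 h replicate 1 or 2 or 3 d replicate 2 or 3 (up to 0.0846). Itih5, which encodes an inter-alpha-inhibitor heavy chain, was lower at 16 h (-1.11, adjusted p = 0.0364) and 1.5 d (-1.33, adjusted p = 0.016). Its call at 16 h was lost without NW replicate 1 or 3, any 1 of the 16 h libraries or 1.5 d replicate 2 (up to 0.111), with the replicate block (0.0503) and with the keratinocyte covariate (0.114). That at 1.5 d was lost without NW replicate 1 or 3 or 1.5 d replicate 3 (up to 0.0627) and with the covariate (0.194). Hapln4, a link protein gene, was at 10.1 ± 3.12 CPM at 16 h and 29.8 ± 10.3 CPM at 3 d (log2 1.56, adjusted p = 0.0207), a call lost without 16 h replicate 2 or 3 or 3 d replicate 1 (up to 0.104) and with the covariate (0.0785).

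Vcan (chr13:89655310-89742512, mm10, minus strand) rose early and stayed high. It stood at 61.9, 30.9 and 74 CPM in NW, 371, 428 and 303 CPM at 16 h, 374, 394 and 414 CPM at 1.5 d, and 495, 378 and 210.0 CPM at 3 d. Every wound library exceeded every NW library, and the 3 wound times overlapped. Vcan rose 6.6-, 7.09- and 6.49-fold (log2 2.72, SE 0.351; 2.83, SE 0.352; and 2.70, SE 0.351), with adjusted p of 0.000218, 0.000186 and 0.000239, and all 3 calls held in every alternative run. The log2 difference of 3 d from 16 h was -0.02 (SE 0.329, adjusted p = 0.975). Of the other lecticans, Acan and Ncan did not pass the filter, and Bcan, a brain proteoglycan, had no counts in NW or at 16 h and 1.07, 0.369 and 1.86 CPM at 1.5 d and 3.99, 2.56 and 2.13 CPM at 3 d. Bcan passed the filter through its 1.5 d and 3 d libraries alone, so that a test against NW adds no support. Against 3 counts over the NW group it was at least 32.7-fold higher at 1.5 d and at least 82.7-fold higher at 3 d. Leaving out 1 library changed these bounds to between 19.2 (without 1.5 d replicate 3) and 44.6 at 1.5 d and between 53.8 and 94.6 at 3 d.

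Several genes for proteases that can cleave versican rose after wounding. Of 7 ADAMTS genes, 4 rose at 16 h, 6 at 1.5 d and 5 at 3 d, and none fell. The counts at 1.5 d and 3 d include Adamts20, which had 0 counts in NW. It passed the filter through wound libraries alone, so that its calls against NW add no support. The median log2 change of the 7 genes was 1.88 at 16 h, or 1.25 with Adamts20 set at its lower bound, and 2.17 and 2.33 at 1.5 d and 3 d. Adamts1, the most abundant by TPM, was at 462 ± 153 CPM in NW and 2426 ± 893, 2074 ± 547 and 1606 ± 589 CPM after wounding, and rose 5.25-, 4.49- and 3.47-fold (adjusted p = 0.000916, 0.00163 and 0.00514). Adamts4 rose 4.3-fold at 1.5 d and 5.04-fold at 3 d (adjusted p = 0.00242 and 0.00161). Adamts15 was at 3.21 ± 2.84 CPM in NW and 81 ± 32.9 CPM at 16 h and rose by 4.65, 4.97 and 4.53 on the log2 scale (adjusted p = 0.0013, 0.000998 and 0.00174), changes that became 5.39, 5.70 and 5.25 without NW replicate 3. Adamts9 rose at all 3 times, by 1.88, 2.81 and 2.57 on the log2 scale (adjusted p = 0.0134, 0.00166 and 0.003), the first call being lost without 16 h replicate 2 (0.0583) and with limma-voom (0.0576). Adamts5 rose at 1.5 d (1.52, adjusted p = 0.00881) and at 16 h (1.25, adjusted p = 0.0224), where the call was lost without NW replicate 2 or 3 or 16 h replicate 2 or 3 (up to 0.0761). Adamts5 was at 124 ± 43.4 CPM at 3 d against 117 ± 5.89 CPM in NW. With the keratinocyte covariate the calls of Adamts1 (adjusted p = 0.0669 and 0.194) and Adamts4 (0.108 and 0.0844) at 1.5 d and 3 d were lost, and those of Adamts5 at 16 h (0.151) and 1.5 d (0.301).

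Among 18 genes that build and sulfate chondroitin chains such as those of versican, 4 rose and 3 fell at 16 h, 6 rose and 2 fell at 1.5 d, and 4 rose at 3 d. Of all genes, 13.5% rose and 11.2% fell at 16 h, 13.7% rose and 10.8% fell at 1.5 d, and 12% rose at 3 d. The falls in this list at 16 h and 1.5 d were not far from these shares. Csgalnact1, which starts chain elongation, went from 30.7, 26 and 14.3 CPM in NW to 219, 291 and 239 CPM at 16 h, 271, 298 and 342 CPM at 1.5 d, and 302, 189 and 172 CPM at 3 d. All 9 wound libraries were above NW, and the rise was 10.6-, 12.8- and 9.35-fold (adjusted p = 2.6e-05, 1.66e-05 and 3.17e-05). Chsy1, a chain polymerase, rose by 1.53, 2.02 and 2.94 on the log2 scale (adjusted p = 0.00297, 0.000643 and 5.9e-05). Its 3 d level exceeded that of 16 h (1.40, adjusted p = 0.0103), a call lost without 3 d replicate 1 (0.0579). Chpf2 rose at 1.5 d and 3 d (1.65 and 1.55, adjusted p = 0.000778 and 0.00126, the latter lost with the keratinocyte covariate at 0.0844). Chpf, its close relative among polymerisation factors, fell at 16 h (-1.59, adjusted p = 0.000817). Chpf was also called lower at 1.5 d (216 ± 47.6 CPM), a call lost without NW replicate 1 (0.0577) or 1.5 d replicate 2 (0.0556). It was at 392 ± 88.9 CPM at 3 d against 421 ± 95.5 CPM in NW. Chpf2 was also called at 16 h (0.80, adjusted p = 0.0346), a call lost without NW replicate 2 or 3 or 16 h replicate 1 or 2 (up to 0.121), with only the 2 groups in the fit (0.0503), with the replicate block (0.0542) and with the covariate (0.167). Chst12, a 4-O-sulfotransferase, fell at 16 h (-1.64, adjusted p = 0.000952) and was at 137 ± 44.2 CPM at 3 d against 151 ± 14.8 CPM in NW.

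**Figure D4:**
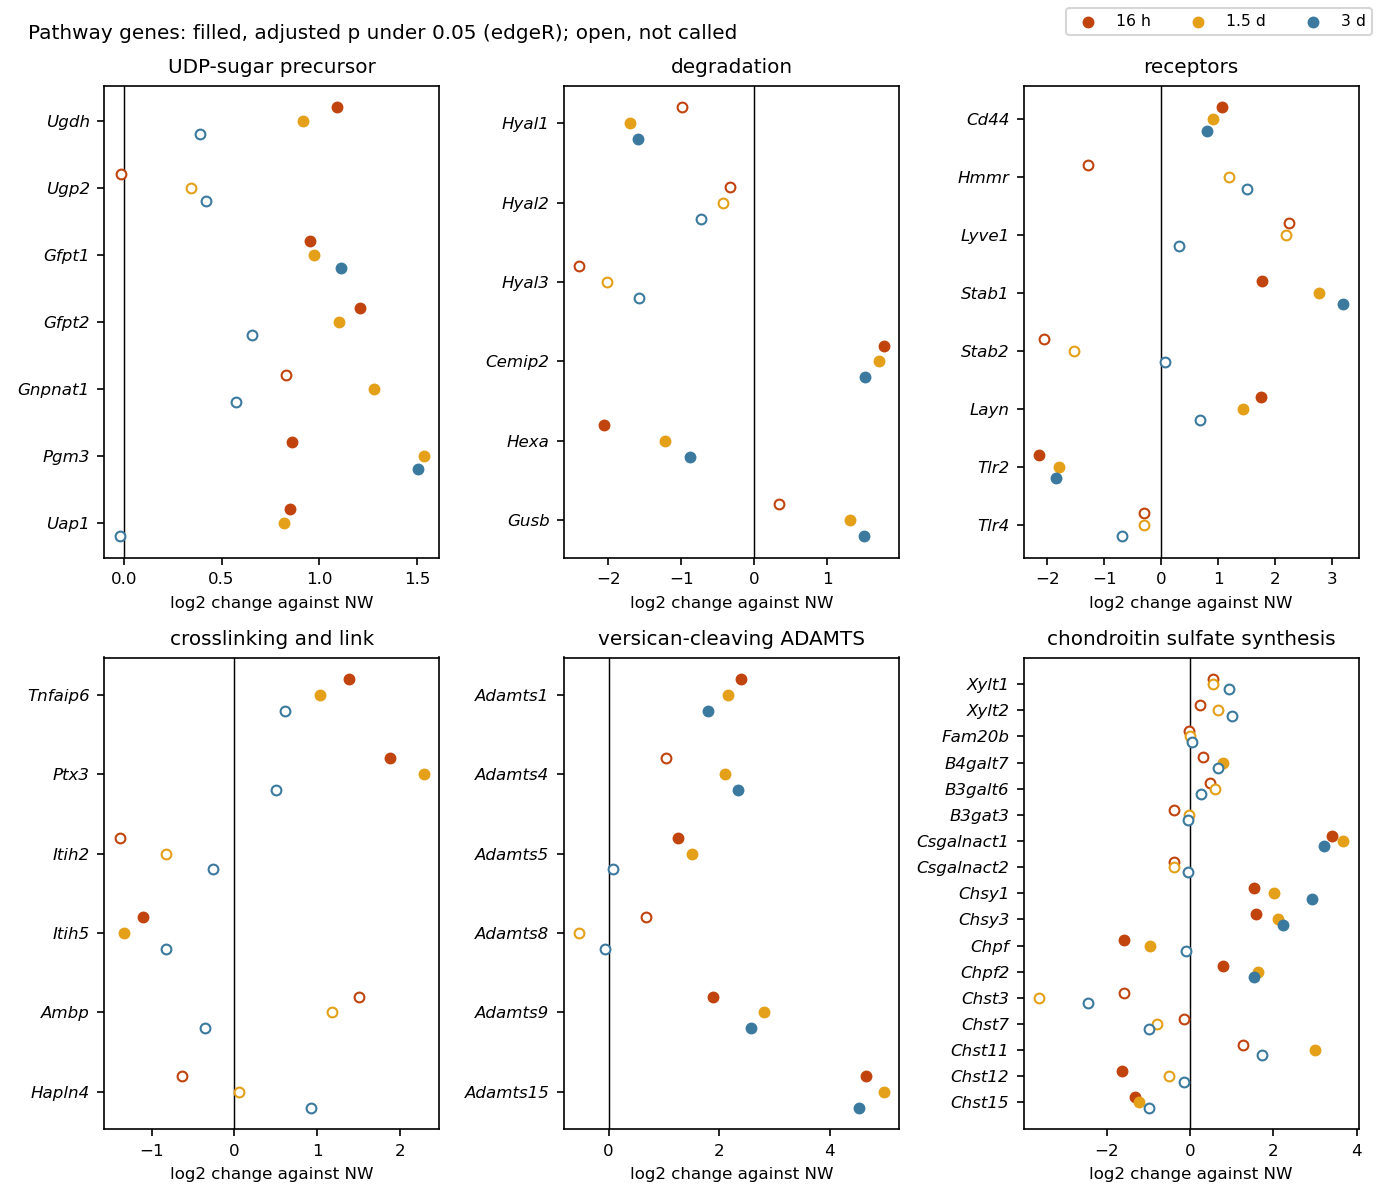
Log2 change against NW (x axis) of each tested gene in 6 of the pathway lists at 16 h, 1.5 d and 3 d; filled points had an adjusted p under 0.05 and open points did not, and genes with no counts in a group are left out. Among the ADAMTS and UDP-sugar genes every called point lies to the right of 0, and the degradation and chondroitin sulfate lists have called points on both sides.

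Prg4 (chr1:150449412-150466165, mm10, minus strand) had the steepest change against NW of the members with counts in NW, which leaves out Cemip. It had 584, 583 and 663 counts in the NW libraries, which is 22.3, 19.2 and 22 CPM. After wounding it stood at 1581, 1837 and 1275 CPM at 16 h, 1649, 875 and 1329 CPM at 1.5 d, and 617, 588 and 164 CPM at 3 d. Every wound library was above every NW library, and every 3 d library was below every library of 16 h and 1.5 d. Prg4 rose 74-fold at 16 h (log2 6.21, SE 0.491, adjusted p = 1.41e-05), 60.7-fold at 1.5 d (5.92, SE 0.484, adjusted p = 1.26e-05) and 21.6-fold at 3 d (4.43, SE 0.451, adjusted p = 4.36e-05), and these calls held in every alternative run. Its mean moved from 12.4 ± 1.98 TPM, rank 7290, to 953 ± 196 TPM, rank 129, at 16 h and was 270.2 ± 152 TPM, rank 639, at 3 d.

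The later decline of Prg4 was the one difference between wound times that was called among the 9 genes. From 16 h to 3 d Prg4 fell 3.43-fold (log2 -1.78, SE 0.403, adjusted p = 0.0147), and 3.67% of all genes were called lower in that comparison. The call was lost without 16 h replicate 2 (-1.64, adjusted p = 0.0569). From 1.5 d to 3 d the change was -1.49 (SE 0.399, adjusted p = 0.24), and no member was called by edgeR in that comparison, where 0.141% of all genes were called; 2 members had an unadjusted p under 0.05, and DESeq2 called Prg4 (adjusted p = 0.0199). Between 16 h and 1.5 d no member was called or had an unadjusted p under 0.05 in edgeR, DESeq2 called none, and 2.86% of all genes were called. Without overlap, 4 members were lower at 3 d than at 16 h (Has1, Cd44, Tnfaip6 and Prg4) and 1 was higher (Has2), where 15.5% of all genes were lower and 17% higher without overlap. From 1.5 d to 3 d Has1 and Prg4 were lower without overlap (6.63% of all genes), and from 16 h to 1.5 d Has2 was higher (12.4%).

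Prg4 exons share 4.77% of their bases with Tpr on the other strand, and those fragments were not counted. Of 6 genes of synovial lining fibroblasts, Prg4 was the 1 that rose at each time, while 1 fell at 16 h, 2 at 1.5 d and 3 at 3 d. Cd55, a complement regulator, fell from 236 ± 45.4 CPM to 72.9 ± 7.72, 94.8 ± 24.6 and 71.2 ± 24 CPM (log2 -1.69, -1.31 and -1.73, adjusted p = 0.000938, 0.00407 and 0.000988). Hbegf, a growth factor gene, fell at 1.5 d (-1.78, adjusted p = 0.00255) and at 3 d (-1.26, adjusted p = 0.0181), the latter call being lost without NW replicate 2 or 3 d replicate 1 (up to 0.0708). With the keratinocyte covariate both Hbegf calls were lost (-1.08, adjusted p = 0.144, and -0.52, adjusted p = 0.663). Clic5 was near absence, at 3.12 ± 2.1 CPM in NW and 0.0135 ± 0.0234 CPM at 3 d (adjusted p = 0.00925, and 0.259 with the covariate).

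In the third library of 3 d, Prg4 (164 CPM), Vcan (210.0 CPM), Has1 (1430.3 CPM), Has2 (200.2 CPM), Cd44 (515 CPM) and Tnfaip6 (2830.2 CPM) were the lowest of their group. Hyal2 was the highest of its group there (19.6 CPM, against 16.1 and 11.8), and Hyal1 (11.1 CPM) and Cemip (2.02 CPM) lay between the other libraries. The keratinocyte share of that library was the highest of the group (1.28%, against 0.0794% and 0.733%), and the part of that share was not tested.

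Across the 12 libraries, the genes whose log2 CPM followed each member most closely were taken from 7715 candidates (7716 for Cemip) that reached a group mean of 20 CPM or more. They are a description, and the libraries share the difference between NW and wound groups as well as their depth. Has1 was closest to Errfi1, an inhibitor of EGF receptor signalling (Pearson r 0.931 over all libraries and 0.897 after removing group means), then Ptx3 (0.904 and 0.8) and Uap1 (0.897 and 0.874). Prg4 was closest to Aldh1a2, a retinoic acid synthesis enzyme (0.991 and 0.857), the complement factor gene Cfb (0.984 and 0.878) and the retinol dehydrogenase gene Rdh10 (0.978 and 0.518). Tnfaip6 was closest to Cndp2 (0.962), the chemokine gene Cxcl2 (0.957) and Pex5 (0.956), and Cd44 to Tnfrsf11b, which encodes osteoprotegerin (0.98), the alarmin gene Il33 (0.974) and Zpr1 (0.969). Vcan was closest to Lpcat4 (0.988), Afg3l1 (0.985) and the thrombospondin gene Thbs4 (0.985), and Has2 to Ccnyl1 (0.968), Lasp1 (0.952) and Copb1 (0.951). Hyal1 was closest to the epidermal protease inhibitor gene Spink5 (0.964 and 0.879), Hspa1b (0.963) and Prlr (0.962), and Hyal2 to Sar1b (0.881), Polr1d (0.866) and Vdac1 (0.858). Cemip, with no NW counts, was closest to Mcm5 (0.978), Jpt2 (0.975) and Gnpat (0.973).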

How the data were processed

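The members and gene lists were chosen with earlier results of these data known. The authors deposited raw counts of fragments per gene, made per the file headers with featureCounts 2.0.0 from read pairs over exons of an mm10 refGene annotation, with no strand, multi-mapping or overlap option set. STAR, SAMtools, Subread and Partek are named in the submitters' processing notes without versions. SMART-Seq v4 full-length cDNA and Nextera XT libraries carry no strand, so that antisense reads cannot be assigned. The other deposited columns give positions, strand and the exon length, and 0 count columns were without a sample.

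Counts were filtered with filterByExpr, scaled by TMM and fitted by group over all 12 libraries with edgeR 4.0.16 (R 4.3.3, robust quasi-likelihood test, limma 3.58.1). The 6 pairwise comparisons and an F test among the 4 groups were run, with Benjamini-Hochberg adjustment over all 14901 genes tested, and a call was an adjusted p under 0.05. The SE of a log2 change is the change over the square root of F and is approximate. TPM used the deposited exon length. For correlations a prior count of 2 entered log2 CPM. Folds over a group without counts used a floor of 3 counts over the group, and such bounds cover counting error only. The 2 ratios of TPM were tested with exact two-sided permutation tests over the 4 groups. The code was tested on simulated data.

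Members were always named, and of each pathway list up to 5 genes with the smallest F test p among those called. Alternatives were DESeq2 1.42.0, limma-voom, total-count scaling, no filter or 1 CPM in at least 3 libraries, only the 2 groups compared, a block for replicate number, the log2 keratinocyte share of counts as a covariate, and leaving out each library. No set test was run, 1 gene of the degradation list is not reported here, and protein sequences were not used here.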

Additional observations from a re-analysis of the deposited data

Results flagged for a closer look

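Prg4 had the same direction of change against NW at 16 h and at 3 d, but the sizes differed: the direct test between the times gave a log2 change of -1.78 from 16 h to 3 d (adjusted p = 0.0147, edgeR's quasi-likelihood test), with all 3 libraries of 3 d below all 3 of 16 h. Both changes use the same NW libraries, and the call was lost without 16 h replicate 2 (adjusted p = 0.0569).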

How the results depend on the processing

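Of 1251 values for the members under alternatives, 1182 kept direction and call, 38 lost a call, 8 gained one and 23 changed sign, none of the last in a called result. For the named pathway genes, 43 of 78 called changes lost their call in at least 1 alternative and none changed sign. The number of genes called was 3687, 3647 and 3147 at 16 h, 1.5 d and 3 d against NW, 426 between 1.5 d and 16 h, 21 between 3 d and 1.5 d, 1420 between 3 d and 16 h, and 4431 in the F test.

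With the keratinocyte share as a covariate, in the order of the comparisons just given without 3 d against 16 h, these counts were 2014, 661, 489, 257, 38 and 1865, and 37 of the 78 pathway calls were lost; members called were 3 in place of 8 at 1.5 d, 3 in place of 6 at 3 d and 4 in place of 8 in the F test. Every wound library had a lower share than every NW library, and the cause was not tested. DESeq2 called 1192 genes between 1.5 d and 16 h, 195 between 3 d and 1.5 d (with 1 member in place of 0) and 2367 between 3 d and 16 h. Between 3 d and 1.5 d limma-voom called 74, total-count scaling 51 and no filter 51, and total-count scaling called 2 members in place of 1 between 3 d and 16 h; the cause of these changes was not tested.

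Total-count scaling moved the median of all genes by -0.113 (3 d against NW) and -0.17 (3 d against 16 h), and the share of higher genes among calls from 61.5% to 42% (3 d against 16 h) and from 71.4% to 41.2% (3 d against 1.5 d). DESeq2 moved that share from 83.6% to 70.1% between 1.5 d and 16 h.

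Residual correlations did not show a pairing by replicate number, and with 3 libraries per group they cannot exclude a weak one. Same-numbered libraries of different groups had residual correlations of -0.172 to 0.168 over 18 pairs, and 3 of 12 libraries correlated best with their own number. The replicate block gave 211 calls between 1.5 d and 16 h, and an adjusted p of 0.0556 for Has1 in the F test.

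Leaving out 1 library gave 2249 to 3773 genes and 5 to 6 members called at 16 h, 2392 to 3802 and 5 to 8 at 1.5 d, and 1826 to 3269 and 4 to 7 at 3 d. It gave 147 to 433 genes and 0 members between 1.5 d and 16 h, 2 to 29 and 0 between 3 d and 1.5 d, 726 to 1515 and 0 to 1 between 3 d and 16 h, and 3348 to 4323 and 6 to 8 in the F test. The lowest counts of genes came without 16 h replicate 2 (2249, 147 and 726), 1.5 d replicate 3 (2392), 3 d replicate 1 (1826) and 3 d replicate 2 (2), and the 5 members at 1.5 d without NW replicate 2 or 3. The p of the Has1 share ranged from 0.00578 to 0.0238, and that of the ratio of synthases to Hyal1, Hyal2 and Cemip from 0.0173 to 0.0979.

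Uncalled log2 changes that reversed were as follows. Has1 at 3 d against NW was -0.0113 with total-count scaling, -0.337 with the covariate and -0.013 (without NW replicate 3) to 0.34 leaving out 1 library. Has2 between 3 d and 1.5 d was -0.0733 with total-count scaling, -0.0185 with the replicate block, -0.0501 with the covariate and -0.192 to 0.242 leaving out 1 library. Vcan was -0.137 with the covariate (-0.0164 to 0.233 leaving out 1 library) between 1.5 d and 16 h, and 0.0186 with DESeq2 and 0.0233 without a filter (-0.356 to 0.254) between 3 d and 16 h. Leaving out 1 library gave -0.443 to 0.147 for Vcan, -0.149 to 0.367 for Hyal1, -0.516 to 0.0457 for Hyal2 and -0.222 to 0.0765 for Cd44 between 3 d and 1.5 d, and for Hyal2 -0.583 to 0.0775 at 16 h against NW and -0.438 to 0.123 between 1.5 d and 16 h.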
